A study of Zea mays with 12 samples.

Results

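The lignin pathway and peroxidase genes described here are 5 maize genes, of 1108 that the array's annotation names, each measured by 1 of the 17621 probe sets that are not manufacturer's controls. They are 4CL (LOC542166), ccr2 (Gene ID 542735, synonym cncr2), LAC1 (606456), PER2 (542571) and pmPOX1 (542029). They were chosen by gene name, with the difference between giant cells and control cells on these same arrays already known. Values of that difference are therefore given as a description, and so are counts of the genes past the threshold for it, with no p-value for a gene. The change with time was tested. In the RefSeq gene table PER2 is also called pmPOX2, pox2 and PRX2, and pmPOX1 is also called PER1, pox1 and PRX1. A different gene, listed as per-1 (100037830), shares the name PER1 and is kept apart here.

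The samples were maize root cells of a cross of A188 and B73, cut from root sections by laser capture. Seedlings 2 weeks old had been inoculated with 1000 juveniles of Meloidogyne incognita, the southern root-knot nematode, which turns root cells of its host into enlarged giant cells and feeds on them. Giant cells were captured at 21 and at 14 days after inoculation, and so were control cells, which makes 4 groups of 3 biological replicates with 1 array for each replicate. Control cells came from regions without nematodes on infested roots, so they were also from inoculated plants. A sample of giant cells covered about 5000000 square micrometres (40 to 60 cells) and a control sample about 13000000 (75 to 150 cells). The tissue type of the control cells is not given, and the labels tie no array of giant cells to the plant of a control array. Giant cells have no defining marker among the lists used here, so the capture itself could not be checked against one.

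Lignin is a polymer of phenolic alcohols that stiffens and waterproofs secondary cell walls, above all in the xylem of roots. Its building blocks are made in the phenylpropanoid pathway, in which 4-coumarate:CoA ligase (4CL) activates hydroxycinnamic acids and cinnamoyl-CoA reductase (ccr2) starts their reduction to the alcohols. Laccases (LAC1) and class III peroxidases (PER2, pmPOX1) are secreted enzymes that can oxidise the alcohols in the wall, where the radicals couple to lignin. Class III peroxidases also act in wall stiffening, loosening and defence, and the pmPOX names come from peroxidases found at the plasma membrane of maize roots.

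The arrays were similar in overall brightness, with a median signal between 199.8 and 229.9 in giant cells and between 182 and 216 in control cells. Transcripts added at hybridization were brighter on the giant-cell arrays (11193 to 18616) than on the control arrays (6990.1 to 9929.8). The 18S ribosomal RNA signal was also higher on every giant-cell array (34113 to 58633) than on any control array (20470.5 to 32571). The 3′ to 5′ signal ratio of ubiquitin was 2.22 to 5.43 in giant cells and 1.85 to 2.96 in control cells, and that of actin 0.0449 to 0.31 in giant cells and 0.0352 to 0.819 in control cells. The part of these measures in the values of the 5 genes was not tested. Probe sets were tested where the signal exceeded the 40th percentile of its own array (a signal of 112.8 to 135.4) on at least 3 arrays. That filter kept 12080 probe sets, all 5 genes among them. ccr2 passed it through 1 giant-cell and 5 control arrays, and PER2 through 2 giant-cell and all 6 control arrays. In tissue samples of this kind, fewer cells of a type and less RNA per cell cannot be told apart.

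4CL was bright in all 4 groups, and its cell types overlapped at 21 days and did not at 14 days. Its signals were 639, 1965 and 1125 in giant cells at 21 days, against 1228, 990.8 and 1544 in control cells of that day. The 21-day groups overlapped, the 3 control arrays lying within the range of the giant-cell arrays. At 14 days 4CL had signals of 1189, 1784 and 509 in giant cells, against 1993, 1795 and 2735 in control cells. All 3 giant-cell arrays then lay below all 3 control arrays, although the highest giant-cell array (1784) and the lowest control array (1795) nearly met. The mean at 14 days was 1.87-fold lower in giant cells (giant cells 1160.4 ± 638, control cells 2174.5 ± 496, SD, n = 3 each). At 21 days the means were 1243 ± 671 in giant cells and 1254 ± 277 in control cells (SD, n = 3 each).

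ccr2, the other gene of monolignol synthesis, was dim in giant cells on both days. Its signals were 18.3, 41.8 and 137 in giant cells at 21 days, against 157, 167 and 96.9 in control cells of the same day. One giant-cell array (137) lay above the lowest control array (96.9), so these groups overlapped. At 14 days ccr2 had 89.3, 90.0 and 21.6 in giant cells, against 357, 358 and 175 in control cells, with no overlap. The mean was 2.13-fold lower in giant cells at 21 days (giant cells 65.8 ± 63.1, control cells 140.0 ± 37.7, SD, n = 3 each). It was 4.43-fold lower at 14 days (giant cells 67.0 ± 39.3, control cells 297 ± 106, SD, n = 3 each). Of the 6 giant-cell arrays, 1 had ccr2 above the filter's signal, and on the others it ranked between the 14.4th and the 34.1st percentile of the array.

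**Figure D1:**
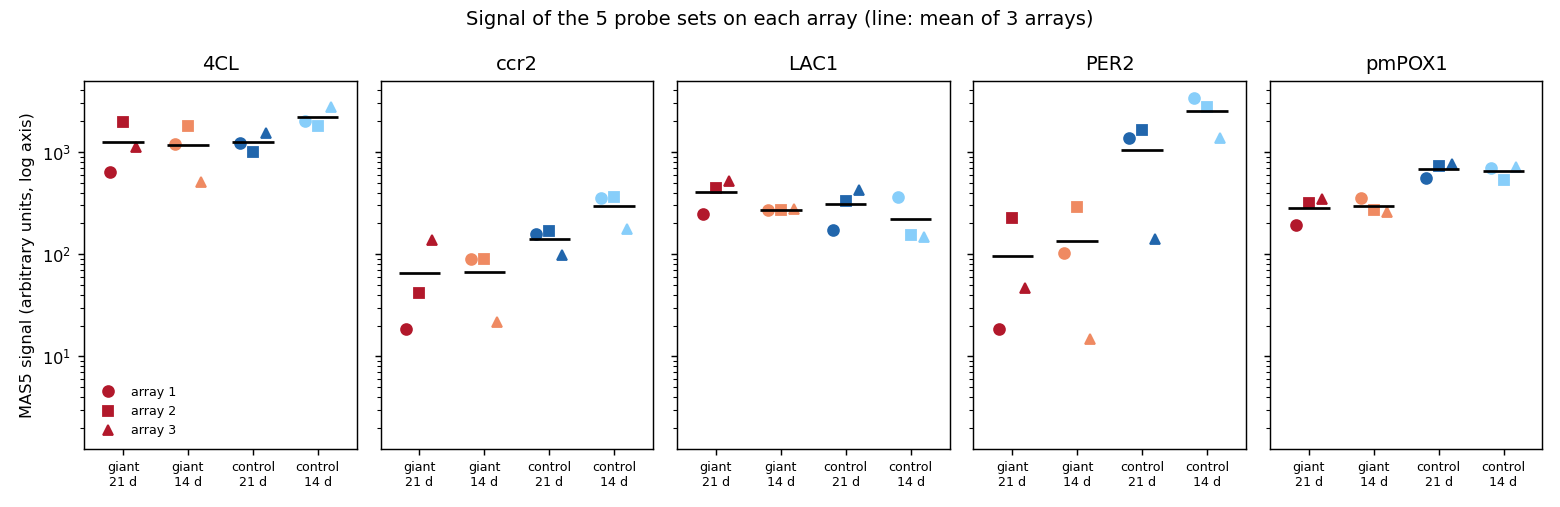
MAS5 signal of 4CL, ccr2, LAC1, PER2 and pmPOX1 on each of the 12 arrays (log axis), by group from giant cells at 21 and 14 days to control cells at 21 and 14 days; symbols mark arrays 1, 2 and 3 of a group and the line is the mean of 3 arrays. The 6 giant-cell arrays of pmPOX1 (193 to 357) lie below its 6 control arrays (536 to 757), and PER2 spans 14.9 to 289.5 in giant cells and 142 to 3385 in control cells.

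LAC1, the laccase gene, had a higher mean in giant cells in the deposited signals, but its groups overlapped on both days and the direction turned under another scaling. Giant cells at 21 days had 249, 441 and 517, against 171, 333 and 422 in control cells. At 14 days giant cells had 268, 267 and 278, against 365, 152 and 148 in control cells. The giant-cell arrays of 14 days hardly differed from each other (coefficient of variation 2.15%), while the control arrays of that day were spread (55.9%), with 1 high array (365) and 2 low ones. The mean was 1.30-fold higher in giant cells at 21 days and 1.22-fold higher at 14 days, and the log2 difference was 0.40 ± 0.41 (SE) on each day. With arrays scaled to the transcripts added at hybridization it was -0.39 at 21 days and -0.15 at 14 days.

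PER2 had the widest difference between cell types of the 5 genes. Its signals were 18.4, 224 and 46.4 in giant cells at 21 days, against 1378, 1644 and 142 in control cells. The third control array stood far below the other two and below the highest giant-cell array, so the groups of this day overlapped through it. At 14 days PER2 had 102, 289.5 and 14.9 in giant cells, against 3385, 2719.6 and 1368 in control cells, and here the groups were well apart. The mean was 11.0-fold lower in giant cells at 21 days (giant cells 96.1 ± 111, control cells 1055 ± 802, SD, n = 3 each). It was 18.4-fold lower at 14 days (giant cells 136 ± 140.3, control cells 2491 ± 1028, SD, n = 3 each). Without the third control array of 21 days the log2 difference of that day was -4.41, against -3.30 with it.

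pmPOX1, the second peroxidase gene, differed less in size but more evenly. Giant cells at 21 days had 193, 319.6 and 343, against 555, 728 and 757 in control cells. At 14 days giant cells had 357, 272 and 257, against 695, 536 and 714 in control cells. The highest of the 6 giant-cell arrays (357) lay below the lowest of the 6 control arrays (536), which held for none of the other 4 genes. Over all probe sets tested, 7.41% had all 6 giant-cell arrays below all 6 control arrays. The mean of pmPOX1 was 2.39-fold lower in giant cells at 21 days (giant cells 285 ± 81.0, control cells 680.0 ± 109, SD, n = 3 each). At 14 days it was 2.19-fold lower (giant cells 295 ± 53.9, control cells 648 ± 98.0, SD, n = 3 each).

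The genes differed in how well replicate arrays of a group matched. The SD within groups, on the scale of log2 of the signal plus an offset of 9.50, was 1.57 for PER2, 0.85 for ccr2, 0.65 for 4CL, 0.55 for LAC1 and 0.30 for pmPOX1. The median over all probe sets tested was 0.39. PER2 was thereby more variable between replicates than 99.2% of the probe sets tested and pmPOX1 than 27.8%, so that a difference of a given size was measured with very different precision in the 2 peroxidase genes.

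On this log2 scale the giant-minus-control differences at 21 days were -3.30 ± 1.03 for PER2, -1.30 ± 0.61 for ccr2, -1.26 ± 0.26 for pmPOX1 and -0.14 ± 0.45 for 4CL (SE of the limma fit). At 14 days they were -4.64 ± 1.03 for PER2, -2.12 ± 0.61 for ccr2, -1.11 ± 0.26 for pmPOX1 and -1.05 ± 0.45 for 4CL. The median over all probe sets tested was 0.13 at 21 days and 0.16 at 14 days. Groups did not overlap, with giant cells lower, for 1 of the 5 genes at 21 days (pmPOX1) and for 4 at 14 days (all but LAC1). Over all probe sets tested this share was 15.5% at 21 days and 17.3% at 14 days. At an adjusted p of 0.05, 2 of the 5 were called in either direction at 21 days (PER2 and pmPOX1), 3 at 14 days and 3 in the mean of both days (ccr2, PER2 and pmPOX1 in each case), all with lower values in giant cells. The shares called over all probe sets were 18.4% at 21 days, 27.5% at 14 days and 42.2% in the mean. Since the genes were selected on this difference, nothing is read from these counts.

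**Figure D2:**
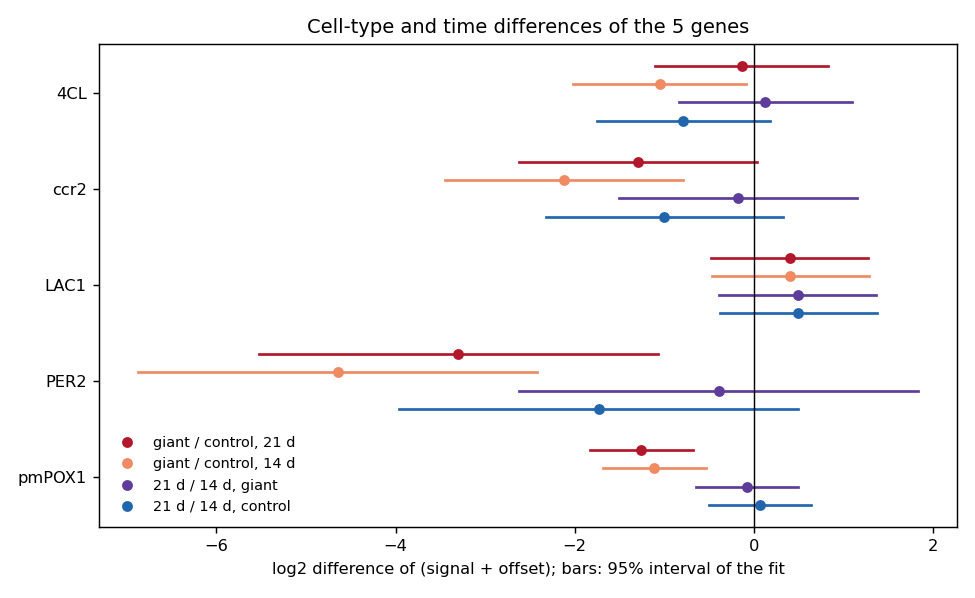
Log2 differences of the 5 genes between giant and control cells at 21 and 14 days, and between 21 and 14 days in giant and in control cells, from the limma fit on log2 of signal plus offset (points), with 95% intervals (bars). The time intervals of all 5 genes include 0 in both cell types, and the bars of PER2 are the widest.

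Time within a cell type was not used to choose the genes and was tested. In giant cells no member was shown to differ between 21 and 14 days. The log2 differences (21 minus 14 days) were 0.13 ± 0.45 for 4CL, -0.18 ± 0.61 for ccr2, 0.49 ± 0.41 for LAC1, -0.39 ± 1.03 for PER2 and -0.077 ± 0.26 for pmPOX1. Their limma adjusted p-values ran from 0.56 (LAC1) to 0.91, and none of the 5 had an unadjusted p under 0.05. The 95% interval was narrowest for pmPOX1 (-0.65 to 0.50) and widest for PER2 (-2.62 to 1.84), so for PER2 a change of several fold in either direction was not detectable with these arrays. Of all probe sets tested, 0.637% were called between days in giant cells. None of the 5 genes had groups that did not overlap between the days in giant cells, against 25.8% of all probe sets in either direction.

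In control cells PER2, ccr2 and 4CL had lower means at 21 than at 14 days, but none of the differences passed the test. PER2 had a mean 2.36-fold lower at 21 days, a log2 difference of -1.73 ± 1.03 (95% interval -3.96 to 0.49, limma adjusted p = 0.59). That value was -0.63 without the third control array of 21 days. ccr2 differed by -0.999 ± 0.61 (-2.33 to 0.33, limma adjusted p = 0.61) and 4CL by -0.79 ± 0.45 (-1.75 to 0.18, limma adjusted p = 0.59). For ccr2 and 4CL all 3 control arrays of 21 days lay below all 3 of 14 days, which 7.49% of the probe sets tested also showed. LAC1 differed by 0.50 ± 0.41 (limma adjusted p = 0.70) and pmPOX1 by 0.066 ± 0.26 (limma adjusted p = 0.95). No member had an unadjusted p under 0.05, and 0.0248% of all probe sets were called between days in control cells.

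**Figure D3:**
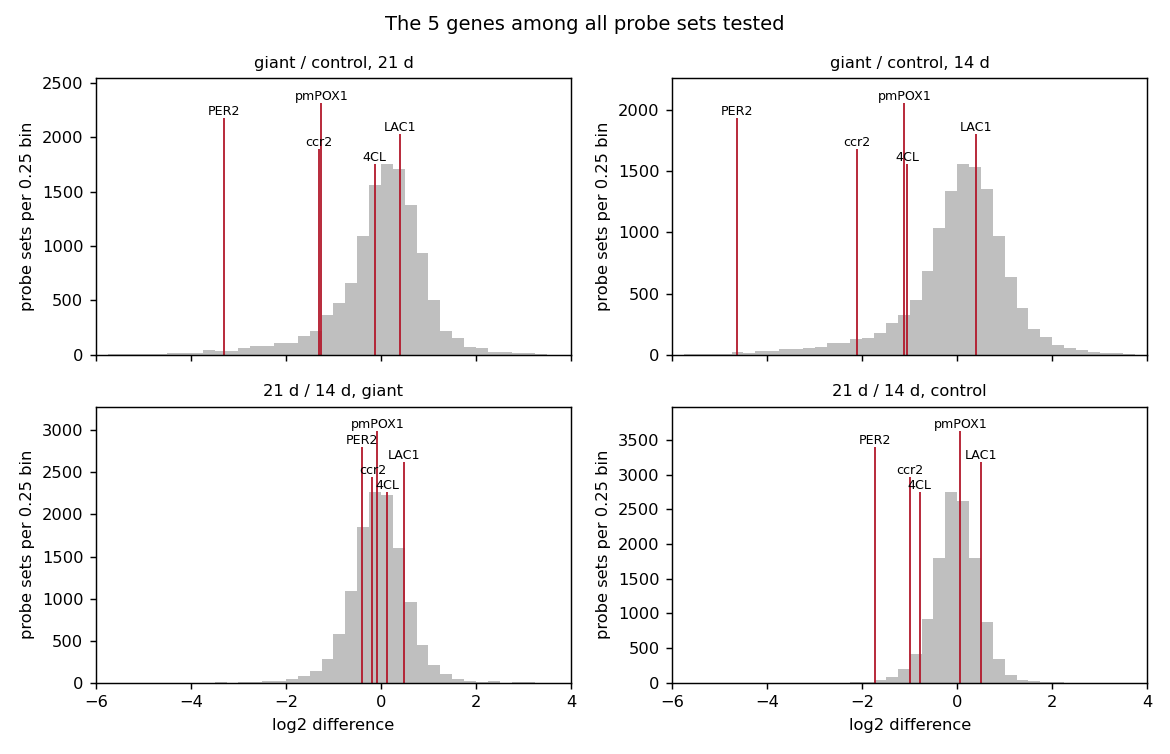
Log2 differences of all 12080 probe sets tested (grey bars, number per bin of 0.25) with the 5 genes as vertical lines of arbitrary height, for giant against control cells at 21 and 14 days (top) and 21 against 14 days in giant and control cells (bottom). PER2 lies far to the left in both cell-type panels (-3.30 and -4.64), and PER2, ccr2 and 4CL lie left of most probe sets in the control-cell time panel (-1.73, -0.999 and -0.79).

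The difference between giant and control cells was not shown to change between the days for any of the 5 genes. The change of the effect (21 days minus 14 days) was 1.34 ± 1.46 for PER2 (95% interval -1.81 to 4.49, limma adjusted p = 0.92), 0.92 ± 0.63 for 4CL (-0.45 to 2.28, limma adjusted p = 0.84) and 0.82 ± 0.87 for ccr2 (limma adjusted p = 0.91). For pmPOX1 it was -0.14 ± 0.37 (limma adjusted p = 0.97) and for LAC1 -0.0057 ± 0.57 (limma adjusted p = 1.00). In limma 0% of the probe sets tested were called for this change, while 839 had an unadjusted p under 0.05, none of them a member. The 14-day difference of 4CL, which the 21-day means do not show, is thus not shown to differ between the days.

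Other genes of the pathway were taken from a list ordered by role. Like the marker lists below, it was chosen with earlier results of these data known. The calls and p-values between cell types for listed genes are therefore a description. The platform's gene names held 15 of them, 8 with a tested probe set, and none for the shikimate-ester, methylation or hydroxylation steps. In the limma fit 3 of the 8 were called at 21 days, Px11 and a2 lower and BM1 higher, beside 18.4% of all probe sets. At 14 days 2 of the 8 were called, Px11 and a2, both lower, beside 27.5% of all probe sets. Their median log2 difference was 0.13 at 21 days and -0.72 at 14 days, beside medians of 0.13 and 0.16 over all probe sets. At 14 days 7 of the 8 had negative differences, against 41.9% of all probe sets. With arrays scaled to the added transcripts 7 were negative at 21 days and all 8 at 14 days.

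At the entry of the pathway, the phenylalanine ammonia-lyase gene PAL1 had signals of 3898, 7862 and 9626 in giant cells at 21 days, against 7715, 6693 and 7078 in control cells. At 14 days it had 5699, 7027 and 2021 in giant cells, against 10343, 7669 and 7498 in control cells. As with 4CL, which acts later in the pathway, the groups overlapped at 21 days and did not at 14 days. The difference did not pass the test at 14 days (-0.96 ± 0.41, limma adjusted p = 0.099) or at 21 days (-0.10 ± 0.41, limma adjusted p = 0.88). With scaling to the added transcripts PAL1 was called lower at 14 days (-1.54, limma adjusted p = 0.023) and not at 21 days (-0.92, limma adjusted p = 0.13).

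CCR (542463, synonym cncr1), the other cinnamoyl-CoA reductase gene, was not called on either day. It had 1619.6, 2483 and 649 in giant cells at 21 days, against 1129, 727 and 867 in control cells. At 14 days the giant-cell arrays had 798, 1721 and 214, against 3470, 1880.5 and 1385 in control cells. Its log2 difference was 0.62 ± 0.64 at 21 days (limma adjusted p = 0.53) and -1.62 ± 0.64 at 14 days (limma adjusted p = 0.076). ccr2 had negative differences on both days. The change of the effect of CCR between days, 2.25 ± 0.91, did not pass (limma adjusted p = 0.68). Without giant-cell array 2 of 14 days both PAL1 (limma adjusted p = 0.045) and CCR (limma adjusted p = 0.021) were called lower on that day. With scaling to the added transcripts CCR was called lower at 14 days (-2.19, limma adjusted p = 0.040) and had a difference of -0.19 at 21 days (limma adjusted p = 0.86).

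BM1, a cinnamyl alcohol dehydrogenase gene that acts after ccr2, was higher in giant cells at 21 days. Its signals were 3022, 3426 and 2403 in giant cells, against 1831, 1491 and 1021 in control cells, without overlap (1.05 ± 0.31, limma adjusted p = 0.034). At 14 days BM1 had 2878, 1986 and 2125 in giant cells, against 5076, 2228 and 2827 in control cells (-0.46 ± 0.31, limma adjusted p = 0.28). The call at 21 days was lost without any one of 5 arrays, control arrays 2 and 3 and giant-cell arrays 1, 2 and 3 of that day (limma adjusted p up to 0.095). It was also lost when arrays were scaled to the added transcripts (0.24, limma adjusted p = 0.64). The change of the effect between days was 1.51 ± 0.43 (limma adjusted p = 0.49).

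**Figure D4:**
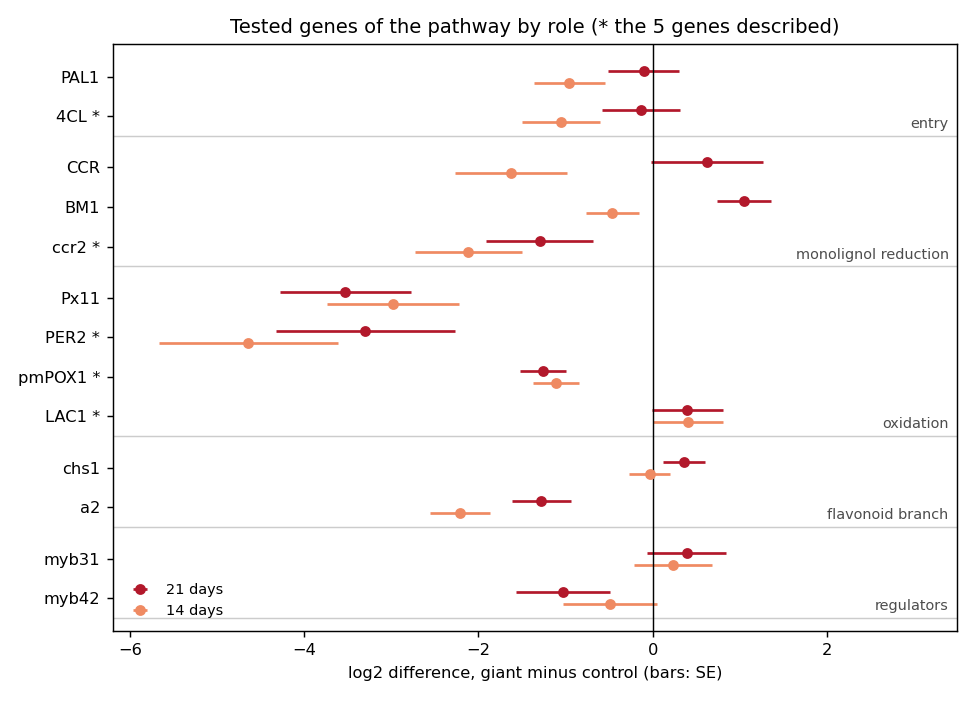
Log2 differences, giant minus control cells, of the 13 tested genes of the pathway at 21 and 14 days, grouped by role with the 5 genes described marked by a star; bars are the SE of the limma fit. PER2 and Px11 have the most negative values, and BM1 at 21 days (1.05) and a2 on both days (-1.28 and -2.21) are among the genes called.

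Among the oxidising enzymes, the peroxidase gene Px11 (542464) was lower in giant cells at 21 days (-3.53 ± 0.76, limma adjusted p = 0.0087) and at 14 days (-2.98 ± 0.76, limma adjusted p = 0.012). Its giant-cell signals were 4.11 to 82.7 at 21 days and 34.3 to 212 at 14 days, against 297 to 897 and 348 to 930 in control cells of the same days. Px11 passed the filter mainly through control arrays, since of its giant-cell signals only the highest (212) exceeded the filter's signal. Its calls are for that reason too a description. The call at 14 days was lost without giant-cell array 3 of that day (limma adjusted p = 0.053). Px11 had negative differences on both days under both scalings, as PER2 and pmPOX1 did. So did 4CL, ccr2, PAL1, a2 and myb42, so this sign does not set the peroxidase genes apart. The peroxidase genes PER42 (pmPOX3-1) and PER66 (pmPOX3-2) were too dim to be tested, above the filter's signal on 1 and 2 arrays. The gene per-1 (100037830), also listed among the oxidising enzymes, was likewise too dim to be tested, and its groups overlapped on both days. The mean of per-1 at 21 days was 18.3 in giant cells, where array 3 had 46.5, and 8.03 in control cells. At 14 days its mean was 3.73 in giant cells and 7.51 in control cells. PER42 ran from 1.17 to 2.41 in giant cells at 21 days and from 1.04 to 40.1 at 14 days, against 55.5 to 85.8 and 42.5 to 179 in control cells. PER66 ran from 0.645 to 14.8 and from 2.87 to 19.1 in giant cells, against 10.4 to 222 and 101 to 589 in control cells at 21 and 14 days.

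The flavonoid branch draws on the product of 4CL. Its anthocyanidin synthase gene a2 was lower in giant than in control cells at 21 days (-1.28 ± 0.34, limma adjusted p = 0.022) and at 14 days (-2.21 ± 0.34, limma adjusted p = 0.00099). The call at 21 days was lost without any one of 4 arrays, control arrays 1 and 2 and giant-cell arrays 1 and 3 of that day (limma adjusted p up to 0.094). The chalcone synthase gene chs1 was not called at 21 days (0.36 ± 0.24, limma adjusted p = 0.31) or at 14 days (-0.035 ± 0.24, limma adjusted p = 0.93). myb31 and myb42, whose products are MYB repressors of lignin genes, were not called either (0.39 and -1.02 at 21 days, 0.23 and -0.49 at 14 days). These values of myb42 are from its brighter probe set. A dimmer one, not tested, had 25.1 to 73.0 in giant cells and 71.8 to 81.4 in control cells at 21 days. At 14 days it had 33.6 to 99.9 in giant cells and 37.0 to 91.9 in control cells. With scaling to the added transcripts myb42 was called lower at 21 days (-1.81, limma adjusted p = 0.017), and chs1 and myb31 had negative differences on both days (-0.43 and -0.38 at 21 days, -0.60 and -0.32 at 14 days), not called. Between days in control cells all 8 genes had negative differences (median -0.41, against 51.7% negative over all probe sets). None was called, and 1, BM1, had an unadjusted p under 0.05 (-1.17 ± 0.31, limma adjusted p = 0.30).

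Several arrays were low or high across these genes together. Of the 13 tested genes of the pathway, members included, array 1 of giant cells at 21 days was the lowest of its group for 10, among them all 5 members. Array 3 of giant cells at 14 days was the lowest for 10, among them 4CL, ccr2, PER2 and pmPOX1, and array 2 of that group was the highest for 9. The low giant-cell arrays of 4CL, ccr2 and PER2 were thus the same arrays on each day. Array 1 of 21 days and array 3 of 14 days also had the lowest median signal over all probe sets in their groups (199.8 and 209.7). The other giant-cell arrays had medians of 204.7 and 208.4 at 21 days and 229.9 and 225.3 at 14 days. No share over all probe sets is given for these counts, so they are not read as particular to these genes. What set those arrays apart was not tested.

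Markers of xylem, the tissue with the most lignin in a root, had lower summed signals in giant cells on both days. Of 6 xylem markers on the list 4 had a probe set: the secondary-wall cellulose synthase genes cesa10, cesa11 and CesA12, and bk2, a COBRA-like gene of secondary walls. In the limma fit 1 of the 4 was called lower at 21 days (bk2, -2.42 ± 0.68, limma adjusted p = 0.029), beside 18.4% of all probe sets called in either direction. All 4 were called lower at 14 days, beside 27.5%. Their median log2 differences were -2.19 at 21 days and -3.23 at 14 days. The filter admitted bk2 through control arrays alone, with giant-cell signals up to 65.9 at 21 days and 85.9 at 14 days. Its calls are therefore a description. The bk2 call at 21 days was lost without control array 1 or 2 or giant-cell array 1 or 3 of that day. At 14 days the call of cesa10 was lost without giant-cell array 1 or 3, that of cesa11 without giant-cell array 3, and that of CesA12 without control array 1 or 2 or giant-cell array 1 or 3. Their summed signal on the 3 arrays was 93.0, 326 and 156 in giant cells at 21 days, against 2965, 652 and 406 in control cells. At 14 days it was 105, 836 and 83.3 in giant cells, against 3012, 1840.45 and 1736 in control cells. The giant-cell array with the highest sum on each day (array 2) was also the one with the highest PER2, at 224 and 289.5. The control array with the lowest sum (array 3 at 21 days, 406) was the one with the lowest PER2, at 142. Other arrays did not match in this way. Control array 1 of 21 days had a far higher sum than control array 2 (2965 against 652) but a lower PER2 (1378 against 1644). Giant-cell array 2 of 14 days had a higher sum (836) than that control array 2 but a PER2 of 289.5. At 14 days ccr2 was also highest in giant cells on array 2 (90.0, against 89.3 on array 1). In control cells at 21 days it was lowest on array 3 (96.9). In giant cells at 21 days it was highest on array 3 (137, sum 156) and not on array 2 (41.8, sum 326). The part of xylem cells in the difference of PER2, ccr2, pmPOX1 and 4CL was not tested.

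**Figure D5:**
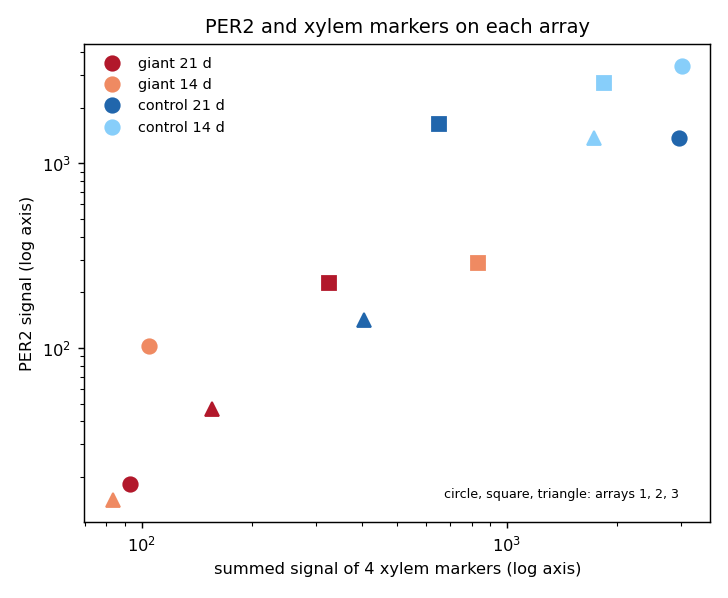
PER2 signal against the summed signal of 4 xylem markers on each of the 12 arrays (both log axes), with colours for the 4 groups and symbols for arrays 1, 2 and 3. Giant-cell arrays lie at lower sums and lower PER2 than most control arrays, and giant-cell array 2 of 14 days (836) has a higher sum than control arrays 2 and 3 of 21 days (652 and 406).

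Markers of other tissues were sparse. lg3 and rs2, listed here under root meristem and cap, were higher in giant cells in the mean of both days (1.94 ± 0.47 and 1.54 ± 0.32, limma adjusted p = 0.0055 and 0.0026). Whether these 2 genes mark those tissues was not tested. Neither was called at 21 days (limma adjusted p = 0.094 and 0.060). With scaling to the added transcripts rs2 just missed the threshold in the mean (limma adjusted p = 0.051). Both passed the filter through giant-cell arrays alone, with control signals of at most 79.5 (lg3) and 67.3 (rs2). Their values are therefore a description. The summed signal of the 3 genes listed there (lg3, rs2 and kn1) was 186 to 410.3 in giant cells at 21 days and 225 to 487 at 14 days, against 79.1 to 153 and 60.4 to 126 in control cells. kn1 was too dim to be tested, and its groups overlapped on both days. Its signal at 21 days was 30.3 to 35.7 in giant cells and 6.18 to 36.1 in control cells. At 14 days it was 11.5 to 41.0 in giant cells and 20.7 to 32.4 in control cells. For root hair and epidermis the list matched 1 gene, rop6, a ROP GTPase gene whose limitation to those cells was not tested. The signal of rop6 was 34.8 to 51.7 in giant cells at 21 days and 56.0 to 203 at 14 days, against 282 to 412 and 225 to 507 in control cells. The phloem marker sut1 lay between 3.51 and 44.3 on all 12 arrays. No endodermis or cortex marker had a probe set with a name. The part of these tissues in the values of the 5 genes was not tested.

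Named genes with a pattern over the 12 arrays most like that of a member were sought for the members with an SD of at least 1 log2 unit over the arrays, which were PER2 and ccr2. Likeness was the root mean square difference of log2 values after each gene's own mean was taken off, over 688 named genes. PER2 was closest to cesa10 (0.90), ivr2 (1.03), an invertase gene, and rf2c (1.05), an aldehyde dehydrogenase gene, where the median gene differed by 2.47. ccr2 was closest to gst9 (0.50), a glutathione transferase gene, ciszog1 (0.53), a cis-zeatin glucosyltransferase gene, and tub3 (0.55), a beta-tubulin gene, where the median gene differed by 1.27. The 12 arrays share the cell-type difference, so these values describe the patterns and carry no test.

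Because the transcripts added at hybridization were brighter in giant cells, the log2 differences depended on the scaling. Scaling each array to those transcripts moved the median of all probe sets by -0.79 at 21 days and -0.56 at 14 days. Under it 3 of the 5 genes were past the threshold at 21 days, ccr2 added to PER2 and pmPOX1, and 4 at 14 days and in the mean, 4CL added to ccr2, PER2 and pmPOX1. LAC1 turned its sign, and the other 4 genes were lower in giant cells under both scalings, and the scaled differences at 21 days were -4.01 for PER2, -2.05 for pmPOX1, -2.02 for ccr2 and -0.94 for 4CL. At 14 days they were -5.13 for PER2, -2.61 for ccr2, -1.68 for pmPOX1 and -1.63 for 4CL.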

How the data were processed

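The authors deposited MAS5 signals, an intensity in linear units, which came from Affymetrix Expression Console per the submitters' processing notes. Its version is not given in the sources used here. Per the labels' protocols, PicoPure was used for RNA isolation and NuGEN WT-Ovation Pico for amplification, and biotin-labelled product was hybridized to the Affymetrix maize array. The mean signal of each array after trimming 2% at either end was 500.1 or 500.2, so the arrays were already scaled alike, and no further normalization was applied. Of 17734 probe sets, 113 manufacturer's controls were left out. The 10th percentile of all signals, 9.50, served as the offset added before log2, which understates folds of dim genes. Probe sets above the 40th percentile of their own array on at least 3 arrays were tested, which removed 5541 of them. All arrays entered 1 model of the 4 group means in limma 3.58.1 under R 4.3.3 (lmFit, then eBayes using a variance trend). Its 6 contrasts were tested two-sided with Benjamini-Hochberg adjustment over the 12080 probe sets and a threshold of 0.05. The limma fit was tested on simulated data. The number of arrays limits the precision.

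The genes and the lists were chosen with earlier results of these data known. Genes were named through the platform's probe annotation and the RefSeq gene table of the Zm-B73-REFERENCE-NAM-5.0 assembly, used for names alone. Every member is named, and of the other list genes up to 4 for each role, by the smallest p between cell types. Signals of different probe sets are not comparable as levels. Promoter and protein sequences of the genes were not analysed here. The alternatives tried were other offsets, filters and scalings, no variance trend, a replicate block, fits of 2 groups, and leaving out each array.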

Additional observations from a re-analysis of the deposited data

How the results depend on the processing

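For members in either time contrast and in the change of the effect between days, 0 calls were made in limma under every alternative run, and 0 had an unadjusted p under 0.05 in the fit reported. Between cell types, the count of members called at 21 days was 2, and 1 with no filter and with no variance trend, where PER2 was lost. With scaling to the added transcripts the counts were 3 at 21 days, 4 at 14 days and 4 in the mean, against 2, 3 and 3 as reported, where ccr2 was gained at 21 days and 4CL at 14 days and in the mean. Leaving out each array gave 1 to 2 at 21 days, 2 to 4 at 14 days and 3 in the mean throughout. PER2 was lost at 21 days without control array 2 of 14 days, control arrays 1 or 2 of 21 days, giant-cell array 1 of 14 days, or giant-cell arrays 1 or 3 of 21 days. ccr2 was lost at 14 days without control arrays 1 or 2 or giant-cell array 3 of that day, and 4CL was gained without giant-cell array 2. The stricter filter left ccr2 untested, with 2 members called at 14 days and in the mean. Some uncalled values changed sign, and the cause was not tested. The change of the effect of LAC1 was 0.020 with an offset of 50 and 0.035 after quantile normalization. The giant-cell time difference of pmPOX1 was 0.043 after quantile normalization and that of 4CL -0.025 with scaling to the added transcripts. Leaving out each array gave, in giant cells, -0.37 to 0.53 for 4CL, -0.83 to 0.37 for ccr2, -1.36 to 0.45 for PER2 and -0.23 to 0.17 for pmPOX1. It gave -0.063 to 0.20 for pmPOX1 in control cells, and for the change of the effect -0.42 to 0.30 for LAC1 and -0.29 to 0.11 for pmPOX1. Over all probe sets, 77 were called between days in giant cells (4 to 205 without an array, 19 to 125 otherwise), 3 in control cells (0 to 3) and 0 for the change of the effect (up to 9). At 21 days 2217 were called between cell types (1029 to 2438 without an array, 1812 to 3678 otherwise) and at 14 days 3324 (2071 to 3453, 2561 to 3475). In the mean of both days 3038 of 5092 calls were higher in giant cells, and 463 of 5462 with scaling to the added transcripts. Arrays with the same replicate number deviated together little (r of -0.07 to 0.24 over 18 pairs, 4 over 0.1), and 0 of 12 arrays correlated best with its own number throughout. A replicate block gave 3, 3 and 2 members called in the mean, at 14 and at 21 days, and 0 in each time contrast. With it CCR, of the other pathway genes, was called lower at 14 days (limma adjusted p = 0.031).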
